A study of Mus musculus with 30 samples.

Results

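The integrin and cadherin genes of IDG-SW3 cells are described here, over 6 untreated days and 4 groups of a hormone experiment. The members were every gene symbol that starts with Itga, Itgb or Cdh and ends in a chain or cadherin number or letter, so they were chosen by name and not by any measured value. There were 50, 26 integrin chains and 24 cadherins, among 25520 symbols in the files of the untreated cells and 25410 in those of the hormone experiment. By textbook class the cadherins are 5 of type I, 13 of type II, 5 others (*Cdh13*, *Cdh16*, *Cdh17*, *Cdh23* and *Cdh26*) and *Cdh29*, which was placed in no class. The integrins are 4 collagen-binding, 4 RGD-binding and 3 laminin-binding alpha chains, the alpha4 and alpha9 chains, 5 leukocyte alpha chains and 8 beta chains.

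Integrins are receptors of 1 alpha and 1 beta chain that span the membrane, grip the extracellular matrix and connect it through talin, kindlin and vinculin to actin. The alpha chain largely sets the ligand: collagen, laminin, or proteins with the RGD sequence such as fibronectin, osteopontin and bone sialoprotein. Classical cadherins bind their like on the next cell in a calcium-dependent way and hold the actin cytoskeleton through catenins. Osteoblasts are known for *Cdh11* (osteoblast cadherin) and *Cdh2* (N-cadherin), and osteocytes sense load through adhesions of their body and dendrites to the bone matrix.

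IDG-SW3 is a conditionally immortalised mouse bone cell line that passes from osteoblast to osteocyte-like cells in culture. All groups were expanded with interferon-gamma and then differentiated without it, on collagen-coated plates, in ascorbic acid and beta-glycerol phosphate. Untreated cells were taken at day 3, 7, 14, 21, 28 and 35, and in the second experiment cells received 100 nM 1,25(OH)2D3, the active vitamin D hormone, or its ethanol vehicle for 24 hours before harvest at day 3 or day 35. Each of the 10 groups had 3 libraries, labelled as biological replicates, and all came from 1 line.

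Levels of untreated cells are in RPKM (reads scaled to gene length and library size), as deposited, and ribosomal RNA rows made up 71.6% to 88.4% of the RPKM sum of each library. That share was 75.6% to 80.1% at day 3 and 81.3% to 88.4% at day 35. Levels of the hormone experiment are in CPM (counts scaled to library size), from 22062866 to 54325515 counts a library. The experiments used different library kits, so changes and not levels are set side by side. The reads on 1100 olfactory receptor genes, taken as a measure of background, made up 0.0501% to 0.0734% of the counts in the 3 hormone libraries of day 3 and 0.0425% in hormone day 35 replicate 2, against 0.0027% to 0.0149% in the other libraries. At that level per kilobase, background alone would amount to 50% or more of the listed counts of 18 of the 50 members in the day 3 hormone libraries.

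The cells carried markers of bone-forming cells. *Col1a1* averaged 113 RPKM at untreated day 3 and 261 RPKM at day 35, and *Dmp1*, an osteocyte gene, averaged 5.63 CPM in vehicle cells of day 3 and 182 CPM in those of day 35. In untreated cells no osteocyte marker averaged 1 RPKM on any day. *Ptprc*, the pan-leukocyte marker, and *Pecam1*, an endothelial marker, were at 0 in all libraries of the hormone experiment. Some other markers of these cell types were detected. In day 35 cells *Lyz2* averaged 27.5 CPM with vehicle and 33.8 CPM with hormone, and *Cd53* 4.26 and 12.3 CPM. *Kdr*, of endothelium, averaged 1.24 to 3.63 CPM over the 4 groups. *Ptprc* and *Pecam1* read above 0 in some untreated libraries, so their 0 here was not read as absence of those cells. In bulk RNA, fewer cells of a type and less RNA per cell cannot be told apart.

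Sequence before the gene start is shown for *Cdh18*, *Itga1* and *Itga8* because they are the 3 members called higher with the vitamin D hormone at day 35. The vitamin D receptor binds, with its partner receptor, a pair of short half-sites, and the 6 letters of such half-sites are in capitals where a search of both strands found them. The letters searched were AGGTCA as well as GGGTCA, and with T at the third place AGTTCA as well as GGTTCA, and other nuclear receptors share the first of these. The 250 bases before the RefSeq start are printed 5′ to 3′ on the strand of the gene, in GRCm38.p6: *Cdh18* at chr15:23036213-23036462 (plus strand), *Itga1* at chr13:115101965-115102214 (minus strand) and *Itga8* at chr2:12301945-12302194 (minus strand).
Cdh18: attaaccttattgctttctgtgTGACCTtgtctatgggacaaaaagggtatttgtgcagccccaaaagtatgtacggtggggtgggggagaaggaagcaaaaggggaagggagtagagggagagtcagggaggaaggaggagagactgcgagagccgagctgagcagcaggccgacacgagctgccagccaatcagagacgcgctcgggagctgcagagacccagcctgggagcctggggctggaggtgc
Itga1: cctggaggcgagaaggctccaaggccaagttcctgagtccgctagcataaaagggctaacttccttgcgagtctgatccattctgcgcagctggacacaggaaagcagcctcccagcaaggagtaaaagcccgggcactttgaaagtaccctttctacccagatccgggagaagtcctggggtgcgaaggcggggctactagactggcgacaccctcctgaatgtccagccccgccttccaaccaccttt
Itga8: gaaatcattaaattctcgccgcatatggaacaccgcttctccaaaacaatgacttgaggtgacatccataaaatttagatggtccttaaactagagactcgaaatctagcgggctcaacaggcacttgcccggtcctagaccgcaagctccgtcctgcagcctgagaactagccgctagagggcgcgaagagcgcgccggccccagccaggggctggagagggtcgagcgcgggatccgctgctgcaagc
The *Cdh18* window holds 1 match, TGACCT on the minus strand, at position -228 from the start, and the other 2 windows hold none. Such a match is common: 38.6% of 32851 windows of this length hold one, as do 13 of 35 windows of the 31 members that have any. A match is letters in a window, not a site of binding.

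Few of these genes were well expressed in untreated cells, and the highest were *Cdh11* and *Itgb1*. By the mean of their highest day, 2 members reached 5 RPKM, 7 lay between 1 and 5 RPKM, 16 between 0.1 and 1 RPKM and 12 below that, and 13 were listed at 0 in every library. The 7 between 1 and 5 RPKM were *Itga5*, *Itga11*, *Itga3*, *Itga10*, *Itgav*, *Itga8* and *Cdh3*. The leukocyte chains *Itgad*, *Itgal*, *Itgax* and *Itgb2* and the epithelial chain *Itgb6* were among those listed at 0, as were 8 cadherins, including *Cdh5* of endothelium. *Cdh1*, *Cdh15* and *Cdh13*, the cadherins of epithelium and muscle and a cadherin tethered by a lipid anchor, did not exceed 0.401 RPKM in any library.

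Only 8 members had at least 1 RPKM in at least 3 libraries and could be tested, 7 integrin chains and *Cdh11*, and the other 42 lay under that filter. A gene was called when its adjusted p was below 0.05 over all 9933 genes tested. Of the 8, 1 was higher and 3 were lower at day 7 than at day 3, against 15.8% of all genes higher and 9.84% lower. Each later day had 1 member higher and 4 lower. Of all genes, 14.4% were higher and 15.3% lower at day 14, and at day 21 these shares were 12.9% and 24.1%. Day 28 had 10.4% higher and 31.2% lower, and day 35 had 5.63% higher and 51.5% lower. In a joint test of all days (limma's F test) all 8 passed, as did 72.5% of all genes, although *Itga3* and *Itga8* were called on no single day. At day 35 the median of all genes had itself moved by -0.69 on the log2 scale, beside -0.87 for the 8 members. With each library centred on its median, 2 members were higher and 3 lower at day 35, against 29.5% and 21.5% of all genes. On each earlier day centring gave 4 lower members, against 15% of all genes at day 7, 18.7% at day 14, 21.6% at day 21 and 21.9% at day 28. It gave 2 higher at day 7 (20.1% of all genes), 3 at day 14 (22.3%), 3 at day 21 (26.8%) and 4 at day 28 (28.7%).

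**Figure D1:**
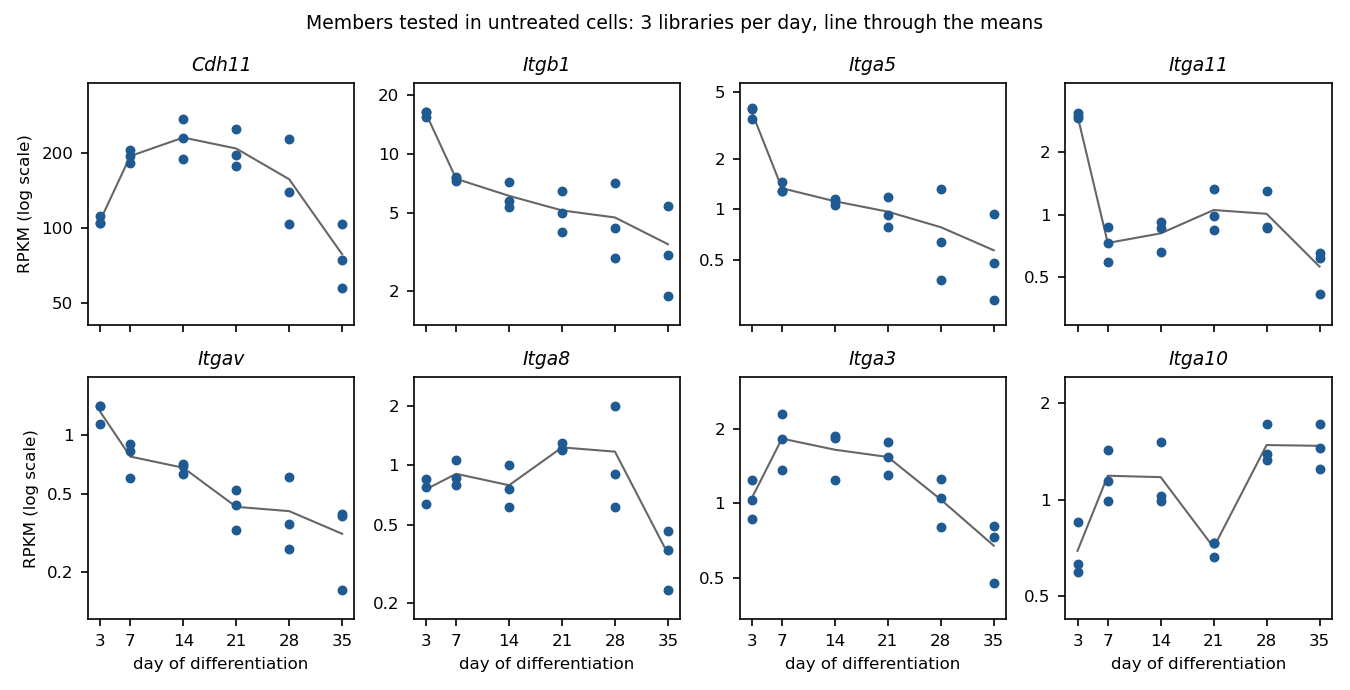
RPKM (log axis) by day of differentiation for the 8 members tested in untreated cells, 1 point for each of 3 libraries a day and a line through the means. *Cdh11* is highest on the middle days, *Itgb1*, *Itga5*, *Itga11* and *Itgav* are highest at day 3, and *Itga10* is lowest at days 3 and 21.

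*Cdh11* stood above all other members on every untreated day. Its libraries read 105, 105 and 112 RPKM at day 3, and 190, 274 and 231 RPKM at day 14, so the day 14 libraries all lay above those of day 3. It rose at day 7 (log2 change 0.86 ± 0.27, adjusted p = 0.0265), day 14 (1.09 ± 0.27, adjusted p = 0.00484) and day 21 (0.94 ± 0.27, adjusted p = 0.00973). The day 7 call was lost when any 1 library of those days was left out, with adjusted p from 0.0556 to 0.0826. By day 35 the libraries read 104, 74.9 and 57.5 RPKM, all below those of day 3, and the change of -0.49 ± 0.27 was not called (adjusted p = 0.134), nor was the centred change of 0.34. Day 28 was called higher only after centring, at 0.87 (adjusted p = 0.000189).

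*Itgb1*, the beta chain that pairs with most of the alpha chains here, was lower on every later day. It read 16.4, 15.4 and 16.4 RPKM at day 3 and 5.43, 3.05 and 1.88 RPKM at day 35, with means of 7.44 at day 7, 6.09 at day 14, 5.13 at day 21 and 4.72 at day 28. All libraries of each later day lay below those of day 3. Centred, the change was -1.17 at day 7 and lay between -1.37 and -1.32 on the later days. As listed, the log2 change was -1.06 ± 0.30 at day 7 (adjusted p = 0.0148) and -2.17 ± 0.30 at day 35 (adjusted p = 5.29e-06; centred -1.34, adjusted p = 3.71e-05). Replicate 1, which was on the same sequencing run on all days, changed by -1.51 at day 35.

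Among the RGD-binding chains, *Itga5*, the fibronectin receptor chain, fell furthest. It read 3.95, 3.44 and 4.03 RPKM at day 3, 1.29, 1.28 and 1.45 RPKM at day 7 and 0.946, 0.482 and 0.290 RPKM at day 35. Most of the fall was in place at day 7 (-1.23 ± 0.25, adjusted p = 0.0013), and it reached -2.05 ± 0.25 at day 35 (adjusted p = 9.53e-07; centred -1.23, adjusted p = 2.34e-05). *Itgav*, which binds vitronectin and osteopontin, read 1.41, 1.41 and 1.14 RPKM at day 3 and 0.394, 0.386 and 0.161 RPKM at day 35. It was called lower from day 14 on and by -1.17 ± 0.19 at day 35 (adjusted p = 3.33e-05), but the centred change at day 35 was -0.35 and not called (adjusted p = 0.162). It passed the filter on low values only through its 3 libraries of day 3, so it had to lie lower elsewhere, and its lower calls, which are among those counted above, are a description. *Itga8*, whose ligand nephronectin is a matrix protein, read 0.775, 0.852 and 0.639 RPKM at day 3 and was not called on any day; at day 35 it read 0.372, 0.231 and 0.461 RPKM (-0.56 ± 0.24, adjusted p = 0.0501).

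The 2 collagen-binding chains tested went opposite ways. *Itga11*, a receptor for fibrillar collagen in mesenchymal cells, read 2.98, 3.08 and 2.94 RPKM at day 3 and 0.868, 0.731 and 0.589 RPKM at day 7, a log2 change of -1.52 ± 0.19 (adjusted p = 1.49e-05). It stayed below day 3 in all later libraries, with 0.652, 0.619 and 0.412 RPKM at day 35 (-1.73 ± 0.19, adjusted p = 3.37e-07; centred -0.91, adjusted p = 0.000125). Outside day 3 only replicate 1 of day 21 (1.33 RPKM) and of day 28 (1.30 RPKM) reached 1 RPKM. *Itga11* thus passed the filter on low values through day 3, where it is high, and its lower calls, like those of *Itgav*, are a description. *Itga10*, the chain known from cartilage, read 0.630, 0.594 and 0.854 RPKM at day 3 and 1.72, 1.46 and 1.25 RPKM at day 35. It rose by 0.73 ± 0.19 at day 35 (adjusted p = 0.00298; centred 1.55, adjusted p = 2.38e-06) and by 0.73 ± 0.19 at day 28 (adjusted p = 0.00394), while at day 21 it overlapped with day 3 (0.735, 0.734 and 0.661 RPKM). No library of day 3 or day 21 reached 1 RPKM. *Itga10* thus passed the filter through the other days, where it is high, and its higher calls, also among those counted above, are a description.

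*Itga3*, the laminin-binding chain tested, was not called on any day as listed. It read 0.866, 1.03 and 1.25 RPKM at day 3, 1.36, 1.82 and 2.30 RPKM at day 7 and 0.735, 0.814 and 0.479 RPKM at day 35, where it lay below day 3 in all libraries (-0.40 ± 0.21, adjusted p = 0.115). Centring turned the day 35 direction, to 0.42 higher (adjusted p = 0.0255). The direction of its day 35 change is therefore set by the scaling. Without the filter the centred change was 0.25 and not called (adjusted p = 0.211).

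Without the filter on low values 37 members could be tested and 19 were called at day 35, 1 higher and 18 lower, against 4.01% and 35.6% of 18732 genes. With centring as well, a setting added after the data were seen, the split was 16 higher and 6 lower, against 44% and 15.9%. Members listed at 0 on both days then stood 0.66 higher. Of the 19, 7 were called in the same direction both ways and 5 turned, *Cdh2*, *Cdh24*, *Itga2*, *Itga7* and *Itga1*, of which *Itga1* was called in both directions (-0.24, adjusted p = 0.017, and centred 0.41, adjusted p = 0.00202). The added 14 were at most 1.24 RPKM in any library. *Cdh18*, a type II cadherin best known from brain, read 0.633, 0.876 and 0.726 RPKM at day 3 and 0, 0 and 0.039 RPKM at day 35 (-1.28 ± 0.16, adjusted p = 1.73e-05; centred -0.62, adjusted p = 0.00609). *Itga6*, a laminin receptor chain, went from 0.891, 0.672 and 0.731 RPKM to 0.044, 0.016 and 0.028 RPKM (-1.25 ± 0.10, adjusted p = 1.76e-07; centred -0.60, adjusted p = 0.00082). *Itgb3*, the partner of *Itgav* in the osteopontin receptor, went from 0.560, 0.754 and 0.863 RPKM to 0.10, 0.156 and 0 RPKM (-1.07 ± 0.19, adjusted p = 0.000356), a call that centring ended (adjusted p = 0.0735). *Cdh2* read 0.406, 0.250 and 0.45 RPKM at day 3 and 0.122, 0.193 and 0.034 RPKM at day 35.

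In the vehicle cells of the hormone experiment more members could be tested, and the late cells again differed from the early ones. Of 46 tested, 5 were higher and 11 lower at day 35 than at day 3, against 15.5% and 14.5% of all 20055 genes tested. The members' median log2 change was 0.08 and that of all genes 0.17. *Itgad* and *Itgam* had 0 counts in all 12 libraries, although background alone would give 67.1 and 74.7 counts in the day 3 hormone libraries, and *Itgb6* and *Cdh15* were too low to test. By CPM per kilobase the order in vehicle day 3 cells was *Itgb1* (844), *Cdh11* (324), *Itgav* (102), *Cdh2* (13.3), *Itga5* (11.8) and *Itga8* (10.8).

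*Itga10* and *Itga11* both rose in late vehicle cells. *Itga10* read 6.95, 9.20 and 10.5 CPM at day 3 and 78.9, 80.6 and 74.7 CPM at day 35, a log2 change of 3.14 ± 0.18 (adjusted p = 7.35e-09). *Itga11* read 31.8, 41.4 and 40.2 CPM at day 3 and 133, 106 and 110 CPM at day 35 (1.62 ± 0.17, adjusted p = 4.22e-06). For *Itga11* this is the reverse of the untreated cells, where it fell. *Cdh2* and *Itgb5* were also called lower in untreated cells as listed without the filter, and higher in vehicle cells. Neither untreated change was called after centring. *Itga5*, *Itga6*, *Itgb3* and *Cdh18* were among those called lower in both experiments. The untreated calls of *Itga6*, *Itgb3* and *Cdh18* were likewise made only without the filter, and that of *Itgb3* ended with centring. The design holds no test of these differences, and the 2 experiments differ in kit and in the ethanol given.

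**Figure D2:**
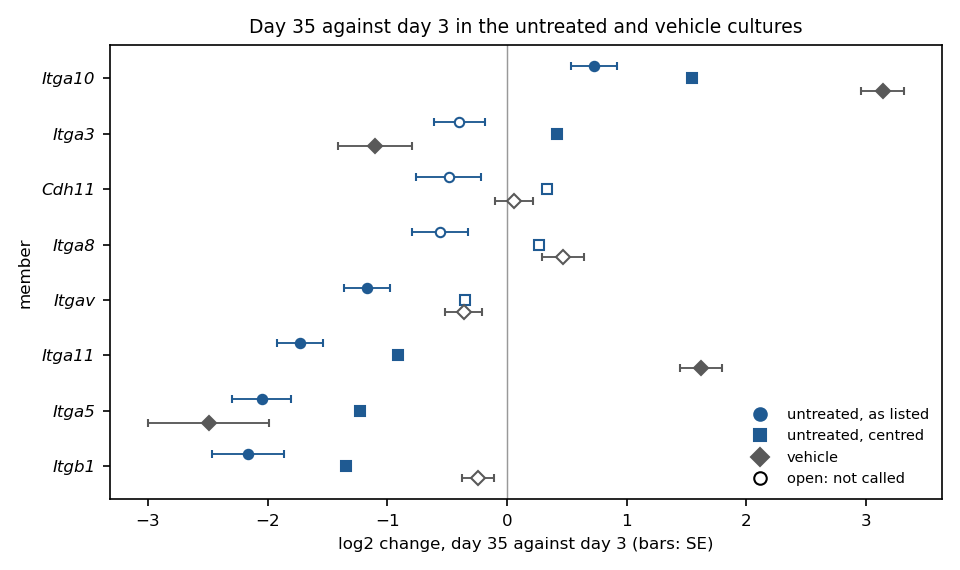
Log2 change between day 35 and day 3 (bars are SE) for the 8 members tested in both experiments: untreated cells as listed (circles), untreated cells centred (squares, no SE) and vehicle cells (diamonds), with open symbols not called. *Itga10* is higher and *Itga5* lower in all 3, while *Itga11* is lower in untreated cells and higher in vehicle cells.

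The third collagen-binding chain moved the other way. *Itga1*, which prefers the collagens of basement membranes, read 60.4, 62.7 and 74.1 CPM at day 3 and 31.2, 26.4 and 24.8 CPM at day 35 (-1.26 ± 0.14, adjusted p = 8.64e-06). *Itga2*, the fourth, read at most 2.72 CPM and was not called.

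The laminin-binding chains *Itga6* and *Itga3* were called lower. *Itga6* went from 16.9, 19.5 and 22.6 CPM to 4.88, 2.78 and 4.09 CPM (-2.32 ± 0.28, adjusted p = 1.18e-05). *Itga3* went from 13.8, 29.9 and 17.5 CPM to 12.0, 7.87 and 8.62 CPM (-1.10 ± 0.31, adjusted p = 0.0139), and lost its call without vehicle day 3 replicate 2 (-0.72, adjusted p = 0.0875), without day 35 replicate 2 (adjusted p = 0.064) and without day 35 replicate 3 (adjusted p = 0.0567).

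*Itga5* again fell, but from an uneven start. Its vehicle day 3 libraries read 21.2, 113 and 40.5 CPM, a spread wider than that of the day 35 libraries (15.1, 8.34 and 7.52 CPM), and the change was -2.49 ± 0.51 (adjusted p = 0.00149). Without vehicle day 3 replicate 2 it was -1.58 (adjusted p = 0.00702). The platelet chain *Itga2b* was called lower as well (-1.50 ± 0.46, adjusted p = 0.0231), a call lost without vehicle day 3 replicate 2 (-1.07, adjusted p = 0.131) and without day 35 replicate 1 or 2. *Itgav* (1120, 945 and 1235 CPM, then 896, 799 and 870 CPM) lay lower in all late libraries and was not called (-0.36 ± 0.15, adjusted p = 0.0872).

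Among the beta chains the most abundant, *Itgb1*, was not called: it read 3476, 3443 and 3407 CPM at day 3 and 2845, 2696 and 3194 CPM at day 35 (-0.24 ± 0.14, adjusted p = 0.201). *Itgb8* fell from 29.7, 51.7 and 44.4 CPM to 23.3, 10.5 and 8.99 CPM (-1.55 ± 0.38, adjusted p = 0.00574). *Itgb3* fell from 25.3, 27.0 and 28.3 CPM to 20.8, 19.6 and 16.6 CPM (-0.50 ± 0.15, adjusted p = 0.0211), a call lost without vehicle day 3 replicate 3 (adjusted p = 0.0749) and without day 35 replicate 2 or 3. *Itgb5*, another partner of *Itgav*, rose from 1.59, 1.4 and 1.42 CPM to 2.49, 3.83 and 3.47 CPM (1.15 ± 0.37, adjusted p = 0.0299) and lost that call with a replicate block and with any of 5 of the 6 libraries left out. Its row, like those of *Itgad* and *Itgam*, holds few counts (65, 62 and 62 in the vehicle libraries of day 3), and why was not tested. *Itgb2*, the beta chain of leukocytes, rose from 2, 0 and 5 counts to 34, 21 and 26 counts (4.03 ± 0.94, adjusted p = 0.00417). *Lyz2*, a leukocyte marker, was higher in the same libraries (a mean of 3.68 CPM at day 3 and 27.5 CPM at day 35), as was *Cd53* (2.41 ± 0.49, adjusted p = 0.00137). *Ptprc* was at 0 there, which was not read as absence of leukocytes. The part of other cells in the *Itgb2* change was not tested.

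The 2 most abundant of the called cadherins moved in opposite directions. *Cdh2* rose from 92.8, 123 and 105 CPM to 189, 205 and 204 CPM (0.90 ± 0.14, adjusted p = 0.000187). *Cdh18* fell from 40.8, 37.8 and 43.4 CPM to 2.95, 2.56 and 3.11 CPM (-3.82 ± 0.17, adjusted p = 6.98e-10). *Cdh11* overlapped between the days and was not called: it read 3055, 2672 and 2931 CPM at day 3 and 3256, 2745 and 2999 CPM at day 35 (0.06 ± 0.16, adjusted p = 0.831).

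The remaining called cadherins were lower and less abundant. *Cdh26* went from 16.7, 13.6 and 14.6 CPM to 3.71, 3.86 and 4.58 CPM (-1.89 ± 0.28, adjusted p = 8.83e-05). *Cdh17*, known from intestine, went from 6.59, 7.31 and 5.71 CPM to 2.72, 1.55 and 1.47 CPM (-1.76 ± 0.39, adjusted p = 0.00254). *Cdh24* changed by -1.80 ± 0.49 (adjusted p = 0.0108) and lost its call without day 35 replicate 2 (adjusted p = 0.0584) and with the background subtracted. *Cdh1* (2.93, 4.13 and 3.44 CPM, then 3.86, 3.28 and 4.25 CPM) and *Cdh13* (1.15, 2.66 and 1.79 CPM, then 2.08, 1.08 and 0.654 CPM) overlapped between the days.

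At day 3, 7 members were lower and 5 higher with hormone than with vehicle, of 46 tested, against 9.09% and 11.4% of all genes. The lower 7 were 6 integrin chains (*Itga5*, *Itgb8*, *Itga6*, *Itgb1*, *Itgav* and *Itgb3*) and *Cdh2*, and the higher 5 were *Itga8* and 4 members of low count (*Itga4*, *Itgb2*, *Itgal* and *Cdh19*). The members' median log2 change was 0.47, or 0.48 with members at 0 in vehicle cells set to their bound, beside 0.26 for all genes. By class the medians ran from -0.63 (RGD-binding alpha chains, 4 tested) to 4.55 (leukocyte alpha chains, 3 tested), with 3.32 for the 13 type II cadherins. Members near background in the hormone libraries enter these medians, and their part in them was not tested. With the olfactory background subtracted, 2 were higher and 8 lower. The shares of all genes after that subtraction are not given, so these 2 counts are not read as a result about the members. This comparison shares its 3 vehicle libraries with that of the vehicle days.

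The abundant chains *Itgb1* and *Itgav*, and *Itgb3*, were lower in hormone-treated day 3 cells. *Itgb1* read 3476, 3443 and 3407 CPM with vehicle and 1798, 2017 and 2096 CPM with hormone (-0.81 ± 0.14, adjusted p = 0.00121). *Itgav* read 1120, 945 and 1235 CPM with vehicle and 603, 686 and 627 CPM with hormone (-0.79 ± 0.15, adjusted p = 0.00323). *Itgb3* read 25.3, 27.0 and 28.3 CPM with vehicle and 16.9, 15.1 and 15.4 CPM with hormone (-0.77 ± 0.15, adjusted p = 0.00348). In these 3 genes no library of one group reached those of the other.

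The largest falls were in less abundant chains. *Itga5* read 21.2, 113 and 40.5 CPM with vehicle and 14.8, 7.17 and 7.19 CPM with hormone (-2.59 ± 0.51, adjusted p = 0.00345). Without vehicle day 3 replicate 2 its change was -1.68 (adjusted p = 0.012). *Itgb8*, which pairs with *Itgav* and is known for activating latent TGF-beta, read 29.7, 51.7 and 44.4 CPM with vehicle and 13.3, 8.07 and 8.34 CPM with hormone (-2.08 ± 0.39, adjusted p = 0.00238). *Itga6* read 16.9, 19.5 and 22.6 CPM with vehicle and 5.04, 3.97 and 6.04 CPM with hormone (-1.97 ± 0.27, adjusted p = 0.000208). *Cdh2* was 92.8, 123 and 105 CPM with vehicle and 72.2, 73.7 and 68.0 CPM with hormone (-0.59 ± 0.14, adjusted p = 0.0127), a call lost without hormone replicate 3 (adjusted p = 0.0603).

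*Itga8* was the 1 well-expressed member that rose at day 3. It read 95.9, 55.4 and 86.4 CPM with vehicle and 183, 195 and 173 CPM with hormone, a log2 change of 1.21 ± 0.18 (adjusted p = 0.000319). Every hormone library lay above every vehicle library.

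**Figure D3:**
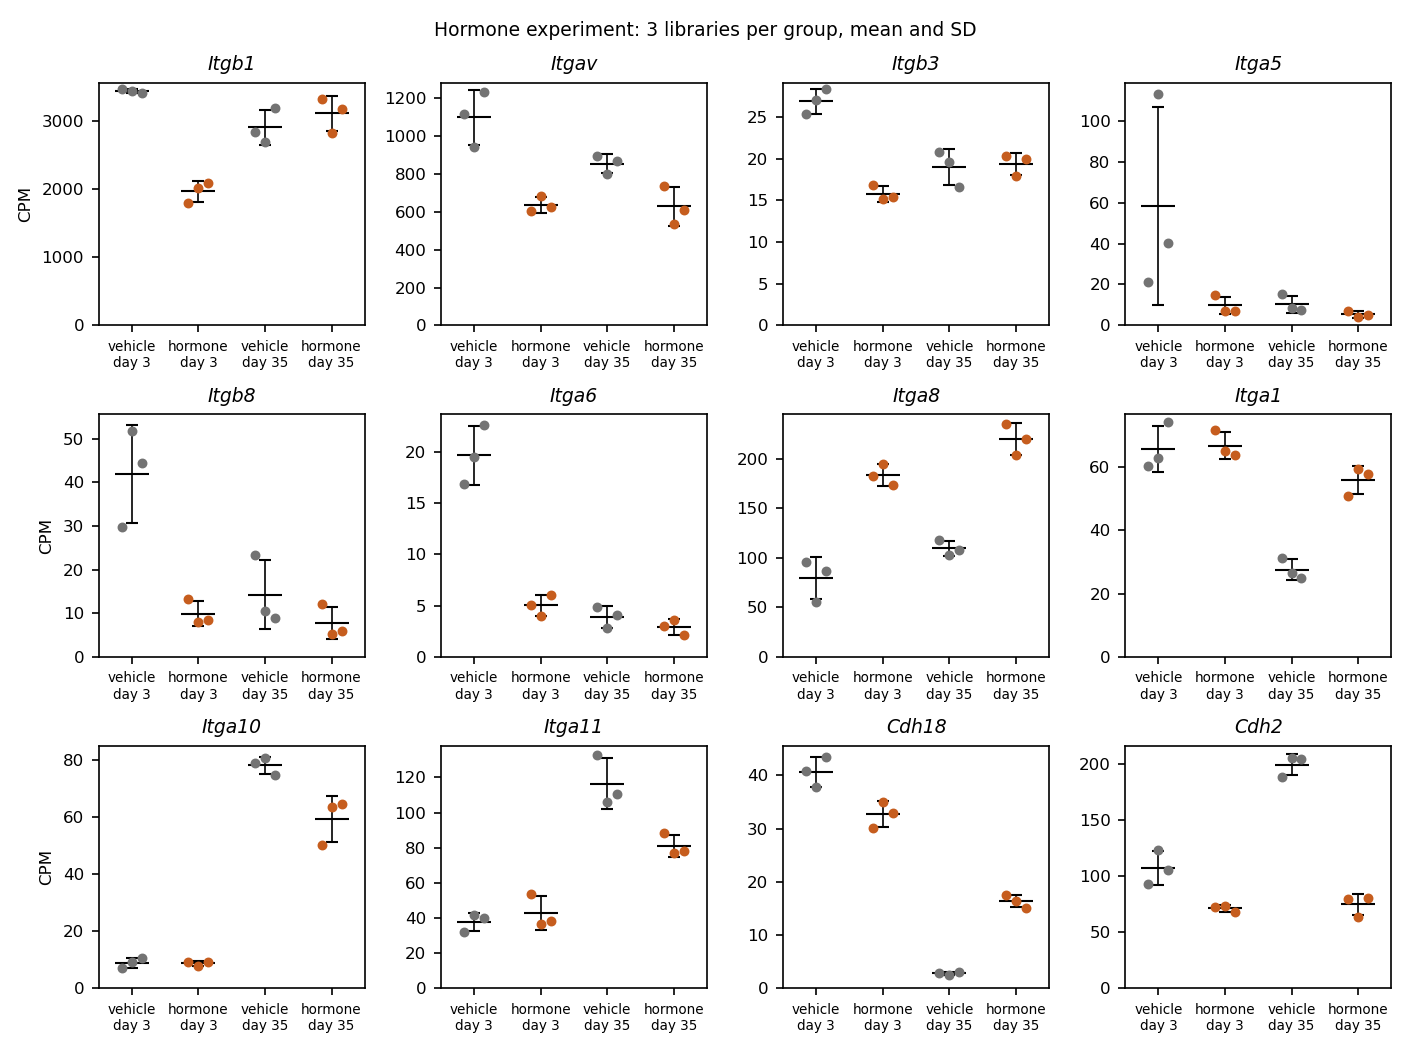
CPM of 12 members in the 4 groups of the hormone experiment, 1 point a library, with the mean and SD of 3. *Itga8* is higher with hormone on both days, *Cdh18* and *Itga1* are higher with hormone at day 35, *Cdh2* is lower on both days, and *Itgb1*, *Itgb3* and *Itga6* are lower with hormone at day 3.

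The other 4 calls at day 3 rested on few counts in libraries with a raised background. *Cdh19* had 0 counts in each vehicle library and 28, 9 and 24 with hormone, and background alone would give 63.7, more than the 61 listed. *Itgal*, the alpha chain of the leukocyte receptor LFA-1, had 0 counts in each vehicle library and 34, 21 and 31 with hormone, where background would give 97.7. Against a floor of 3 counts over the vehicle group, the listed counts scaled to library size were at least 34.2-fold (*Cdh19*) and 48.1-fold (*Itgal*) higher. Background alone would give 7.6 and 11.7 counts in the vehicle group, more than that floor, so these folds are not bounds on expression. Leaving out any 1 of the 6 libraries ended both calls (adjusted p from 0.0727 to 0.0949). *Itga4* had 23, 0 and 31 counts with vehicle and 155, 140 and 138 with hormone (3.37 ± 0.94, adjusted p = 0.0252), with 208 expected from background, and subtraction ended its call (adjusted p = 0.0696), as did leaving out any 1 hormone library. *Itgb2* had 2, 0 and 5 counts with vehicle and 43, 28 and 57 with hormone (4.49 ± 0.95, adjusted p = 0.00592), with 45.4 expected from background, and it kept its call after subtraction (adjusted p = 0.0116). *Cdh5*, at 27, 33 and 62 counts after 1, 0 and 0, was not called (adjusted p = 0.0522).

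**Figure D4:**
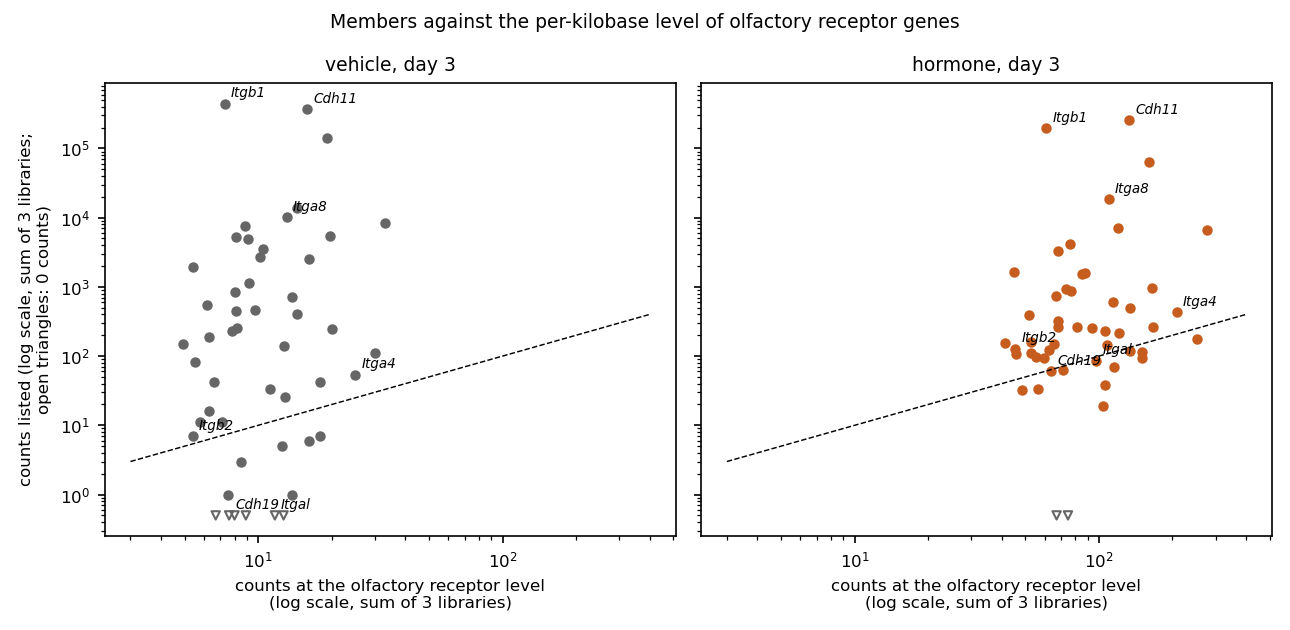
Counts listed for each member (sum of 3 libraries, log axis) against the counts its length would collect at the per-kilobase level of olfactory receptor genes (log axis), for vehicle and hormone cells at day 3; the dashed line marks equal values and open triangles mark 0 counts. In hormone cells *Cdh19* and *Itgal* lie at the line and *Itga8*, *Cdh11* and *Itgb1* far above it.

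At day 35, 3 of 46 members were higher with hormone and 1 lower, against 2.41% and 2.14% of all genes. The members' median log2 change was -0.01 and that of all genes 0.02. The 4 were *Cdh18*, *Itga1*, *Itga8* and *Cdh2*, and in each the 3 hormone libraries lay apart from the 3 vehicle libraries.

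*Cdh18* had the largest change of the 4. It read 2.95, 2.56 and 3.11 CPM with vehicle and 17.6, 16.5 and 15.2 CPM with hormone (2.51 ± 0.16, adjusted p = 2.94e-07). The hormone level of late cells still lay under the 30.2, 35.1 and 32.9 CPM of hormone-treated early cells. *Itga1* read 31.2, 26.4 and 24.8 CPM with vehicle and 50.8, 59.3 and 57.7 CPM with hormone (1.02 ± 0.14, adjusted p = 0.000433). Both genes were among those that had fallen between day 3 and day 35 in vehicle cells, and these comparisons share the vehicle libraries of day 35.

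*Itga8* read 118, 103 and 108 CPM with vehicle and 235, 204 and 220 CPM with hormone (1.00 ± 0.17, adjusted p = 0.00257). *Cdh2* went the other way, from 189, 205 and 204 CPM with vehicle to 79.9, 63.9 and 80.2 CPM with hormone (-1.42 ± 0.14, adjusted p = 2.17e-05). None of these 4 calls was lost when any 1 library of the comparison was left out or the olfactory background was subtracted. Hormone replicate 2, the library with the high background, lay between the other 2 for *Cdh18*, above them for *Itga1* and below them for *Itga8* and *Cdh2*.

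Several abundant members lay lower in all hormone libraries of day 35 without being called. *Itgav* read 896, 799 and 870 CPM with vehicle and 739, 537 and 612 CPM with hormone (-0.44 ± 0.15, adjusted p = 0.149). *Itga11* read 133, 106 and 110 CPM and then 88.2, 76.9 and 78.2 CPM (-0.52 ± 0.17, adjusted p = 0.121), and *Itga10* read 78.9, 80.6 and 74.7 CPM and then 50.1, 63.5 and 64.6 CPM (-0.40 ± 0.17, adjusted p = 0.269). *Itgb1* (3331, 2821 and 3185 CPM with hormone) and *Itgb3* (20.3, 17.9 and 20.0 CPM) overlapped with vehicle. *Cdh11* read 2966, 1981 and 2435 CPM with hormone and was not called (-0.29 ± 0.16, adjusted p = 0.467). *Cdh1* read 1.78, 2.06 and 0.763 CPM with hormone, below all vehicle libraries, and was not called (-1.31 ± 0.45, adjusted p = 0.145).

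**Figure D5:**
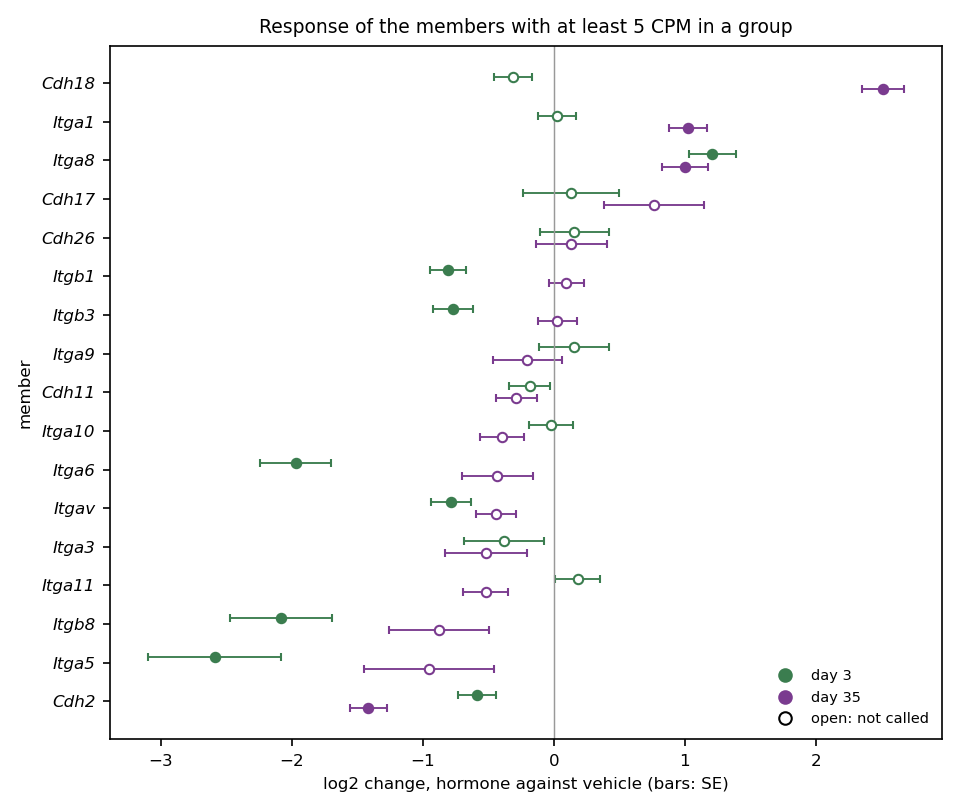
Log2 change with hormone (points, bars are SE) at day 3 and day 35 for the 17 members with a mean of at least 5 CPM in any group, filled where called. *Itgb1*, *Itgb3* and *Itga6* are called lower at day 3 and not called at day 35, *Cdh18* and *Itga1* changed at day 35, and *Itga8* and *Cdh2* changed on both days.

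The response itself differed between early and late cells for 6 members. The difference, the day 35 response minus the day 3 response, was called higher for 5 and lower for 1 of 46, against 4.14% and 2.94% of all genes. The members' median difference was -0.79 and that of all genes -0.29. Members near background in the day 3 hormone libraries enter that median, and their part in it was not tested. The count fell to 3 without hormone day 3 replicate 2 and rose to 13, 5 higher and 8 lower, without hormone day 35 replicate 2. Shares of all genes without those libraries are not given, so these counts are not read as a result about the members. *Cdh18* differed by 2.82 ± 0.22 (adjusted p = 1.4e-06) and *Itga1* by 1.00 ± 0.20 (adjusted p = 0.00707). Both were called higher with hormone at day 35 and neither was called at day 3. *Itga6* differed by 1.54 ± 0.38 (adjusted p = 0.0235), *Itgb1* by 0.90 ± 0.19 (adjusted p = 0.0102) and *Itgb3* by 0.80 ± 0.21 (adjusted p = 0.0363), all 3 lower with hormone at day 3. *Cdh2* differed by -0.83 ± 0.20 (adjusted p = 0.0212). For *Itga8* the responses did not differ by the test (-0.21 ± 0.25, adjusted p = 0.64), nor for *Itgav* (0.34 ± 0.21, adjusted p = 0.35). The calls of *Cdh2*, *Itga6* and *Itgb3* were lost without hormone day 3 replicate 2 (adjusted p = 0.0617, 0.0694 and 0.0922). That of *Itgb3* was also lost without either of the other hormone libraries of day 3 (adjusted p = 0.0565 and 0.0946) and with a replicate block (adjusted p = 0.0683), and that of *Itga6* without hormone day 3 replicate 1 (adjusted p = 0.0501). The *Cdh2* difference was lost as well without vehicle day 3 replicate 1 or 3, vehicle day 35 replicate 2 or 3, or hormone day 35 replicate 1 or 3, with adjusted p from 0.0546 to 0.103.

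Many genes that link integrins to the cell interior were lower in late cells and in hormone-treated early cells. Of 28 adhesion complex genes 19 were tested in untreated cells. As listed, 15 were lower and 0 higher at day 35, against 51.5% and 5.63% of all genes (median -1.36, all genes -0.69). After centring 12 were lower and 2 higher, against 21.5% and 29.5% of all genes. As listed, *Zyx* (zyxin) changed by -3.26 ± 0.23 and *Vcl* (vinculin) by -2.98 ± 0.25. In vehicle cells 11 of 24 tested were lower at day 35 and 1 higher, against 14.5% and 15.5% of all genes (median -0.99, all genes 0.17): *Zyx* changed by -3.68 ± 0.54, *Tgfb1i1* (a paxillin relative) by -2.77 ± 0.40 and *Itgb1bp1*, which binds the tail of the beta1 chain, by 0.69 ± 0.14. With hormone at day 3, 10 were lower and 1 higher, against 9.09% and 11.4% (median -0.83, all genes 0.26), with *Zyx* at -2.45 ± 0.50 and *Vcl* at -2.37 ± 0.20. The higher one, *Fermt1*, had 0 counts in the vehicle libraries, and its call rests on the hormone libraries with a raised background. At day 35 only *Tln2* (talin 2, -0.55 ± 0.13) and *Flna* (filamin A, -0.56 ± 0.13) were called, both lower (2.14% of all genes), and the median was -0.20 beside 0.02. The response differed between the days for 3, all higher at day 35 (4.14% of all genes), among them *Vcl* (1.74 ± 0.27) and *Fermt2* (kindlin 2, 1.32 ± 0.25).

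Catenins and their junction partners changed in both directions. Of 6 tested in untreated cells 3 were lower at day 35, against 51.5% of all genes. After centring 2 were higher and 1 lower, against 29.5% and 21.5% of all genes. Among the 3 were *Ctnna1* (alpha-catenin, -1.15 ± 0.23, centred -0.32) and *Ctnnd1* (p120-catenin, -1.88 ± 0.73, not called after centring). In vehicle cells 3 of 11 were lower (14.5% of all genes), with *Plekha7* at -1.47 ± 0.36 and *Pvrl2* at -1.04 ± 0.37, and 1 was higher, *Ctnnb1* (beta-catenin, 3.01 ± 0.41). *Ctnnb1* had only 278 to 303 counts in the vehicle libraries of day 3 and 911 to 2582 at day 35, and *Ctnnd1* had 2 to 22 in these libraries, where *Ctnna1* had 9014 to 18840. Why these 2 rows hold so few counts was not tested. At day 3 the hormone lowered *Ctnna1* (-0.62 ± 0.12) and *Pvrl3* (nectin 3, -0.84 ± 0.15) and raised *Vezt* (vezatin, 0.53 ± 0.14), so 2 of 11 were lower and 1 higher, against 9.09% and 11.4% of all genes. At day 35 it lowered *Pvrl3* (-0.82 ± 0.15) and *Ctnnb1* (-1.58 ± 0.39), against 2.14% of all genes. The difference between the days was called for *Vezt* alone (-0.76 ± 0.20).

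The ligands of these integrins changed in both directions. Of 22 tested in untreated cells 3 were higher and 12 lower at day 35 as listed, against 5.63% and 51.5% of all genes. After centring 8 were higher and 11 lower, against 29.5% and 21.5% of all genes. As listed, *Ibsp* (bone sialoprotein, an RGD protein) changed by 5.49 ± 0.34, *Col1a1* by 1.18 ± 0.24, *Cyr61* by -3.24 ± 0.32 and *Ctgf* by -4.21 ± 0.25. In vehicle cells 8 of 27 were higher and 11 lower, against 15.5% and 14.5%, with *Ibsp* at 8.55 ± 0.25, *Spp1* (osteopontin) at 3.05 ± 0.22, *Cyr61* at -2.88 ± 0.17 and *Ctgf* at -3.53 ± 0.29. With hormone at day 3, 9 were lower, against 9.09% (median of the list -0.58, all genes 0.26), led by *Ctgf* (-6.83 ± 0.35) and *Cyr61* (-3.55 ± 0.18), and *Spp1* alone was higher (1.48 ± 0.21). At day 35, 4 were higher (2.41% of all genes), led by *Spp1* (3.56 ± 0.22) and *Ctgf* (1.44 ± 0.27), and 5 lower (2.14%), led by *Tnc* (tenascin C, -1.49 ± 0.15) and *Ibsp* (-1.39 ± 0.19). The response differed for 7, all higher at day 35 (4.14%), with *Ctgf* at 8.28 ± 0.43 and *Thbs1* at 2.81 ± 0.24.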

How the data were processed

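The members and lists were chosen with earlier results of these data known. Per the submitters' processing notes, reads were aligned with TopHat (version not given) to mm9; the counter and annotation are not given in the sources used here. The untreated files hold RPKM as deposited by the authors. The hormone files are named as RPKM, but the values deposited by the authors are whole counts that grow with gene length, and were read as raw counts, with edgeR used for them as the design provided. Where a symbol had several rows (9 members) the row with the highest mean (RPKM) or the sum (counts) was used.

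For the untreated cells limma (3.58.1) was fitted to log2(RPKM + 0.5) of all 18 libraries (12 residual degrees of freedom), over genes that reached 1 RPKM in 3 or more libraries; fold changes on that scale understate those of low genes. For the hormone experiment edgeR (4.0.16) quasi-likelihood F tests with filterByExpr and TMM were fitted to 12 libraries (8 residual degrees of freedom), in R 4.3.3. SE there is the change divided by the square root of F. All tests were two-sided, and p-values were adjusted over all genes by Benjamini and Hochberg. DESeq2 (1.42.0) was an alternative, with size factors, filters, pseudocount (0.1), centring, run term, background subtraction and left-out libraries. Another setting rescaled the untreated libraries to rows other than ribosomal RNA. Both scripts were tested on simulated data.

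Runs were read from the names of the untreated files, and replicate 1 was on the same run on all days. Replicates 2 and 3 were on run 243 at day 3, on run 247 at days 14, 21 and 28 and on run 246 at day 35. At day 7 replicate 2 was on run 243 and replicate 3 on run 247. Outside replicate 1, a change from day 3 to day 14, 21, 28 or 35 therefore cannot be told apart from a change of run. Named members were those above 5 RPKM on any untreated day, the 5 largest called changes in each direction (at least 5 CPM in the hormone experiment), and 17 adhesion genes given whatever their result; 2 genes in each direction were named from each other list. Lists of markers covered osteoblast, osteocyte, leukocyte, platelet, endothelial, epithelial and skeletal muscle cells. Promoter sequence is RefSeq's, in GRCm38.p6.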

Additional observations from a re-analysis of the deposited data

Results flagged for a closer look

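The response to the hormone differed between day 35 and day 3, by the interaction term of the edgeR fit, for 6 members: *Cdh18* (2.82), *Itga6* (1.54), *Itga1* (1.00), *Itgb1* (0.90), *Itgb3* (0.80) and *Cdh2* (-0.83), each as the log2 response at day 35 minus that at day 3.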

How the results depend on the processing

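Of the members called at untreated days 7 and 35 (with the filter on low values) and in the hormone experiment, none reversed, while centring turned 5 called at day 35 without it. Without the filter, 10 members were called at untreated day 7, 11 at day 14, 14 at day 21, 15 at day 28, 19 at day 35 and 21 on any day, since 37 rather than 8 members were tested. Centring gave 8 at day 28. Centring without the filter, added after the data were seen, gave 11 at days 7 and 14, 16 at day 21, 21 at day 28, 22 at day 35 and 30 on any day. DESeq2 called 8 members with hormone at day 35, 4 in each direction. Leaving out 1 library gave 3 to 13 calls for the difference between the responses. For the settings of this section, shares of all genes are given above only for centring with the filter and, without the filter, for day 35. The other counts are therefore not read as results about the members. For the named members, 6 results of the hormone experiment and 1 of the untreated cells lost their call under another setting, and 43 and 6 did so without 1 library, counted over results and settings. These counts leave out a result whose gene was no longer tested under the setting, so they can be too low.

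Replicate numbers are shared across groups, and the main fits held no block for them. With group means removed, same-numbered untreated libraries correlated at 0.0578 to 0.584 (median 0.269, against -0.301 for other numbers). Same-numbered untreated libraries were therefore more alike than others. In the hormone experiment the range was -0.487 to 0.491 (median -0.0247, against 0.0287 for other numbers). With a replicate block the calls were 5 at each of untreated days 7, 14, 21 and 28, 6 at day 35, 8 on any day, 16 in vehicle cells, 10 with hormone at day 3, 4 at day 35 and 5 for the difference. The block ended the calls of *Itgb5* (vehicle), *Cdh19* and *Itgal* (hormone, day 3) and *Itgb3* (difference). It added those of *Itga3* at untreated day 7 (0.57, adjusted p = 0.0441), *Itga8* at untreated day 35 (-0.56, adjusted p = 0.0453) and *Itga8* in vehicle cells (0.49, adjusted p = 0.0488).

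Depth limits members of few counts: those listed at 0, and the 18 near background in day 3 hormone libraries, cannot be read as absent or present.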

Other observations

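The 8 osteoblast markers summed to 6520 to 9160 CPM in vehicle cells at day 3, 4970 to 6100 CPM with hormone, 41200 to 59300 CPM in vehicle cells at day 35 and 33800 to 41000 CPM with hormone. The 6 osteocyte markers summed to 107 to 133, 58.9 to 62.1, 427 to 562 and 446 to 552 CPM in the same order. The summed level of 10 leukocyte markers ran from 4.10 to 7.98 CPM in vehicle cells at day 3, 8.28 to 11.8 CPM with hormone, 28.9 to 36.5 CPM in vehicle cells at day 35 and 40.8 to 55.9 CPM with hormone, with *Lyz2* the highest. The 5 platelet markers summed to 3.13 to 3.90, 5.01 to 8.32, 3.07 to 5.19 and 2.71 to 3.83 CPM in the same order, the 7 endothelial markers to 2.78 to 6.25, 7.59 to 9.44, 1.75 to 4.00 and 3.01 to 5.16 CPM, and the 5 muscle markers to 5.42 to 11.4, 2.82 to 3.16, 0.736 to 1.62 and 0.383 to 1.82 CPM. The 6 epithelial markers summed to 8.12 to 8.66, 5.52 to 17.3, 0.497 to 1.70 and 0.444 to 1.46 CPM. *Krt19* averaged 7.11 CPM in vehicle cells and 4.52 CPM with hormone at day 3. In untreated cells *Krt19* averaged 4.62 RPKM at day 3 and 0.223 RPKM at day 35. The part of other cells in the members' values was not tested.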
